A study of Mus musculus with 16 samples.

Results

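The genes described are the protein-coding genes for proteins of the cytosolic ribosome, chosen by name: Rpl or Rps followed by a number, with Rplp0, Rplp1, Rplp2 and Rpsa, and without the S6 kinase genes (Rps6k names) and Rps19bp1. The rule found 93 genes among the 54532 of the expression table, 59 with Rpl names (large subunit) and 34 with Rps names (small subunit). Of these, 85 had a mean of at least 1 FPKM and were tested with 11395 genes in all. FPKM divides a gene's fragments by its length in kilobases and by a library size in M fragments. Levels of different genes can be set side by side only as far as the lengths used are those of their transcripts. RNA sequencing covered 16 libraries that the labels name mouse hepatocytes, in 5 groups. Hepatocytes were cultured alone (monoculture, n = 3), with wild-type cancer cells (n = 3), with cancer cells lacking Phgdh, the first enzyme of serine synthesis (knockout, n = 3), or with either kind of cancer cell plus an inhibitor of the chemokine receptor CXCR2 (n = 3 with wild-type and n = 4 with knockout cells). Neither the inhibitor's dose, its vehicle or the time of treatment nor the format of the co-culture or a batch is labelled. Hepatocytes treated in the absence of cancer cells were not among the groups, so an effect of the inhibitor on hepatocytes themselves and one that needs cancer cells cannot be told apart. The series' design text names pancreatic cancer cells (HY19636), and not hepatocytes, as the sequenced material; the labels of the samples were followed. No label states that the replicates came from different cultures, and the p-values therefore cover only the scatter among these libraries.

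Each ribosome holds a single copy of nearly every ribosomal protein and several of the acidic stalk proteins P1 and P2, and the genes for these proteins are known to be expressed in step. In mammals most of their mRNAs begin with a cytosine and a run of pyrimidines, the 5′ terminal oligopyrimidine (TOP) motif, through which mTORC1 and LARP1 control translation and stability of the mRNA. Hepatocytes devote much of their protein synthesis to secreted plasma proteins such as albumin, and ribosome production in liver is known to rise and fall with feeding and growth.

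The libraries held 15 to 21 M fragments assigned to genes, and 1 fragment in a gene of 1 kb was worth 0.0457 to 0.0648 FPKM. Phgdh, which by the labels was knocked out in the cancer cells and not in the hepatocytes, read 195 to 206 FPKM with wild-type cells and 193 to 201 FPKM with knockout cells. If the libraries are of hepatocytes, as labelled, this does not check the labels of genotype. If they are of the cancer cells, as the design text has it, Phgdh RNA was close under both genotype labels. The kind of knockout is not labelled, so the RNA level cannot decide whether the label holds. A list of 18 hepatocyte markers summed to 314 to 320.4 FPKM in monoculture, 173 to 196 and 203 to 217 in wild-type and knockout co-culture, and 870.1 to 889.7 and 1108 to 1168 in the same with the inhibitor. None of the 18 was at 0 throughout a group. Markers at 1 FPKM or more numbered 11, 9 and 10 in the 3 groups without the inhibitor and 17 in both groups with it, and albumin (Alb) read only 55.01 to 58.4 FPKM in monoculture. A list of 15 pancreatic cancer epithelium markers summed to 421 to 434 FPKM in monoculture, labelled as free of cancer cells, 313 to 337 and 312 to 321 in the co-cultures, and 708 to 754 and 682 to 708 with the inhibitor. Its sum came mostly from Krt19, Msln and Cdh1, while Agr2 and Tff1 were at 0 in every library. Markers of other liver cells (19 genes) summed to 1.084 to 6.27 FPKM. Their part, and that of the hepatocyte markers, in the results below was not tested. Wild-type co-culture replicate 1 and inhibitor-treated knockout co-culture replicate 4 stood apart from the others of their groups in these genes, with lower levels of most members, and results that rest on them are given with and without them. In such bulk RNA, a lower number of cells of a type and less RNA per cell cannot be told apart.

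The start sites of 9 members are shown, because the members with and without the pyrimidine run are compared further on and because most of these 9 carry a result. Each line holds 15 bases before and 15 bases from the annotated start (RefSeq, GRCm38.p6), 5′ to 3′ on the gene's strand. Capitals mark the unbroken run of C and T that begins with a C at the start base itself. Rpl15 has the longest run of the 9, Rps18, Rps6, Rps10 and Rps27 have runs of intermediate length, and Rplp2 has a short one. Rplp0 and Rps27l have no such run at the annotated base, and in Rpl7l1 the run is the single C of the start.
Rpl15 (chr14:18270972-18271001, minus strand): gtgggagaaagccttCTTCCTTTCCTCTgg
Rps18 (chr17:33955651-33955680, minus strand): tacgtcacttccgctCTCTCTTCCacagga
Rps6 (chr4:86857353-86857382, minus strand): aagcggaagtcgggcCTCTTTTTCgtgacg
Rps10 (chr17:27635230-27635259, minus strand): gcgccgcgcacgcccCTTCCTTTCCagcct
Rps27 (chr3:90213634-90213663, minus strand): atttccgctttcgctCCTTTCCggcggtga
Rplp2 (chr7:141447636-141447665, plus strand): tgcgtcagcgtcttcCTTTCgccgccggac
Rplp0 (chr5:115559452-115559481, plus strand): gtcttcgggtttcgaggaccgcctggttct
Rps27l (chr9:66946071-66946100, plus strand): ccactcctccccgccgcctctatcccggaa
Rpl7l1 (chr17:46782642-46782671, minus strand): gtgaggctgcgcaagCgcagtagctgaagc

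The members together took up a larger share of each library in co-culture without the inhibitor than in any other group. They held 5.16, 4.98 and 5.10% of the fragments in the 3 monoculture libraries, 6.59, 7.77 and 7.85% in wild-type co-culture and 7.39, 7.91 and 7.22% in knockout co-culture. Inhibitor-treated libraries held 4.62, 5.10 and 4.56% with wild-type and 4.79, 4.73, 4.70 and 4.26% with knockout cells. All 6 co-culture libraries without the inhibitor lay above all 10 others, and the low value in wild-type co-culture belonged to replicate 1. Group means were 5.08 ± 0.0924% (SD, n = 3) in monoculture, 7.41 ± 0.708% (n = 3) and 7.51 ± 0.358% (n = 3) in the co-cultures, and 4.76 ± 0.297% (n = 3) and 4.62 ± 0.240% (n = 4) with the inhibitor. The co-cultures were thus at 1.46 and 1.48 times monoculture, and with the inhibitor at 0.643 and 0.615 times the same co-culture without it. These shares are a description, with no test. The ratio of large-subunit to small-subunit fragments moved little, from 1.46 ± 0.0157 (SD, n = 3) in monoculture to 1.37 ± 0.00965 (n = 3) in wild-type co-culture with the inhibitor. Fragments of the mitochondrial genome, which also count towards each library's total, made up 3.25 to 3.802% of the libraries of monoculture and knockout co-culture, 3.49 to 4.57% of those of wild-type co-culture, and 1.86 to 2.11% of those with the inhibitor.

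**Figure D1:**
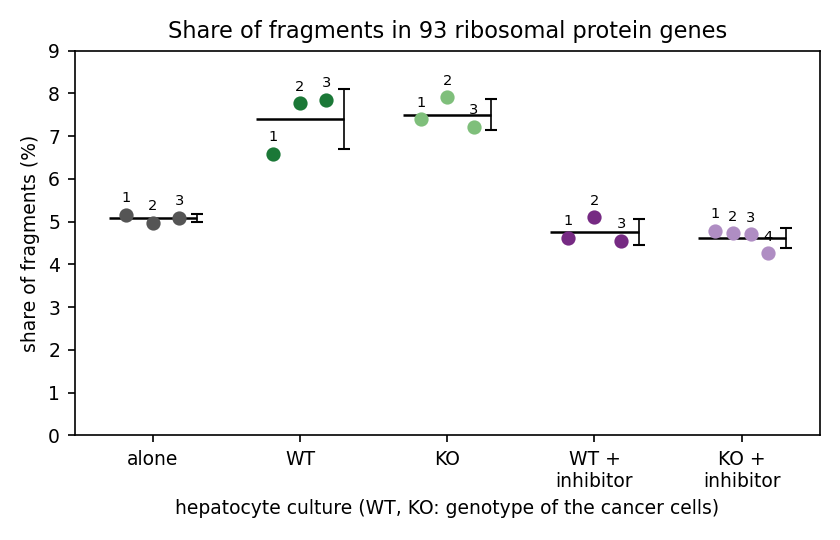
Share of each library's gene-assigned fragments that fell on the 93 cytosolic ribosomal protein genes, in percent on a linear axis from 0. Each point is 1 library and each bar the mean of its group; the 6 co-culture libraries without the inhibitor sit between 6.59 and 7.91%, above the 10 others at 4.26 to 5.16%.

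Levels per gene length differed widely among the 93 genes. The length used was 0.968 to 9.80 times that of the principal transcript, by gene, so the order of the members depends on it. It was 1 for Rplp1 and Rps3a1, 1.22 for Rplp0, 1.30 for Rpl4 and 1.86 for Rpl32, against a median of 2.27. Rplp1, a protein of the ribosomal stalk, was the highest at a mean of 3982 FPKM over the 5 group means, followed by the stalk protein gene Rplp0 at 1759, Rpl4 at 1299, Rpl32 at 1170.1 and Rps3a1 at 1167 FPKM. The last 2 means differed by less than the spread between libraries. Rplp1 alone made up 2.96 to 3.83% of the members' fragments, by library. The median of the 85 tested members was 326 FPKM: 45 lay between 100 and 500 FPKM, 18 between 500 and 1000, 5 above, 7 between 10 and 100, and 10 between 1 and 10. The 8 members not tested were Rpl10l, Rpl39l, Rpl13a-ps1, Rpl36-ps4 and Rpl9-ps1, all listed at 0 in every library, and Rpl3l, Rpl36al and Rpl24 at means of 0.0296, 0.797 and 0.798 FPKM. Rpl10l, Rpl39l and Rpl3l are copies known for their use in testis or muscle. Just inside the limit were Rpl21 at 1.02 and Rpl29 at 1.44 FPKM. Many of these genes have near-identical copies: for a median of 46.8% of a tested member's 100-base stretches (range 0 to 100%) the same sequence also occurs in another annotated gene. How the deposited values assign such reads is not given in the sources used here, so the level of a member with many shared stretches, such as Rps10 (89.5%) or Rps27 (98.4%), is uncertain.

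Hepatocytes cultured with wild-type cancer cells had higher levels of most ribosomal protein genes than hepatocytes alone. Of the 85 tested members, 59 rose (30.1% of all genes tested rose), 2 fell (31.9% of all genes) and 24 did not pass the test (limma, Benjamini-Hochberg adjustment over all genes tested, threshold 0.05). The median difference on the log2(FPKM + 1) scale was 0.47 over the members and 0.01 over all genes tested. 82 of the 85 had a positive difference, and in 56 every co-culture library lay above every monoculture library (30.3% of all genes); the reverse held in 1, Rpl7l1 (32%). 31 of 51 large-subunit genes rose, with a median of 0.42, and 28 of 34 small-subunit genes, with a median of 0.51. Without wild-type replicate 1, 67 rose and 0 fell, with a median of 0.61. Rescaling the libraries without mitochondrial genes, members and the 50 highest genes moved the higher share of all calls from 48.5% to 60.6%, and 67 members then rose.

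The 5 members with the greatest rise among those whose libraries did not overlap were Rps27a, Rps18, Rpl12, Rpl26 and Rpl17. Rps27a, which encodes ubiquitin fused to a small-subunit protein, read 83.6, 97.6 and 94.7 FPKM in monoculture and 376, 245 and 318 in wild-type co-culture, a difference of 1.74 ± 0.45 (SE, adjusted p = 0.00376) on the log2(FPKM + 1) scale. All 3 co-culture libraries were above 97.6 FPKM, with a wide spread among them. Rps18, a protein of the small subunit's head, read 22.4, 12.3 and 13.0 FPKM alone and 28.4, 41.2 and 25.6 in co-culture, a difference of 0.97 ± 0.26 (SE, adjusted p = 0.00473); its highest monoculture library was close below its lowest co-culture library. Rpl12, which lies at the base of the stalk, read 322, 299 and 291 FPKM alone and 613, 564 and 565 in co-culture, a difference of 0.93 ± 0.05 (SE, adjusted p = 7.50e-10). The Rpl12 groups were far apart and narrow. Rpl26, near the exit of the peptide tunnel, read 6.93, 5.43 and 6.74 FPKM alone and 12.1, 12.4 and 12.7 in co-culture, a difference of 0.87 ± 0.19 (SE, adjusted p = 0.00132). Rpl17, another protein of the tunnel exit, read 160.2, 149 and 212 FPKM alone and 319, 277 and 284 in co-culture, a difference of 0.76 ± 0.32 (SE, adjusted p = 0.0484). The call for Rpl17 rested on single libraries, since the adjusted p ranged from 0.0754 to 0.134 without monoculture replicate 1 or 2 or without any one of the wild-type co-culture libraries; it was also lost without the filter (adjusted p = 0.116) and with no intensity trend (adjusted p = 0.0523). Of the 100-base stretches of Rps27a, Rps18, Rpl12, Rpl26 and Rpl17, 69.1, 57.3, 46.8, 36.8 and 77.1% occur in other annotated genes. How such reads were assigned is not given, so these levels are uncertain. Both members that fell, Rpl7l1 and Rps27l, are paralogues and are described with their partners further on.

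**Figure D2:**
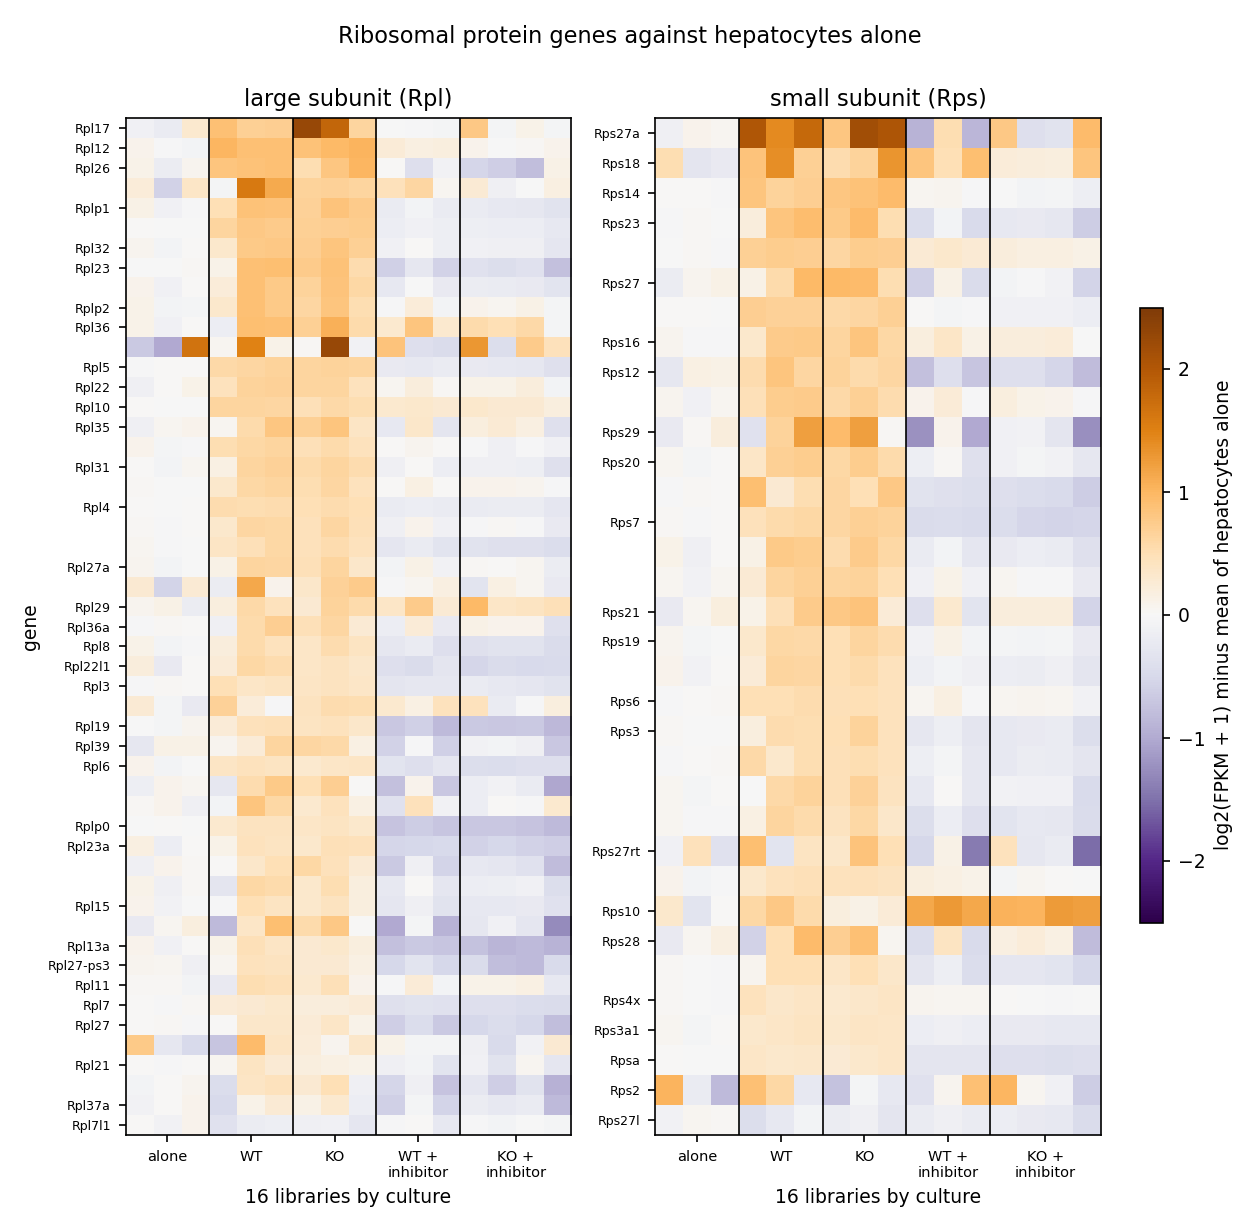
The 85 tested members in 16 libraries, each cell showing log2(FPKM + 1) minus the gene's monoculture mean on a diverging colour scale centred at 0, with libraries grouped in columns and members in rows, labelled for the genes named in the text. Columns of both co-cultures without the inhibitor are mostly above 0 and those with the inhibitor mostly at or below it; Rps10 stands out as higher with the inhibitor.

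With Phgdh-knockout cancer cells the levels were again higher than in hepatocytes alone; this comparison shares the monoculture libraries with the last. 62 of 85 members rose (30.3% of all genes tested), 1 fell (31.2%) and 22 did not pass. The median difference was 0.51 over the members and 0.01 over all genes, 82 members had a positive difference, and 72 had every co-culture library above every monoculture library (33.3% of all genes), with the reverse in 2, Rpl7l1 and Rps27l (33.8%). 34 large-subunit and 28 small-subunit genes rose. The 5 with the greatest rise were Rps27a, Rpl17, Rpl12, Rps14 and Rps18. Rps27a read 162, 412 and 380.3 FPKM in knockout co-culture, a difference of 1.67 ± 0.45 (SE, adjusted p = 0.00503), and its replicate 1 lay far below the other 2. Rpl17 read 824, 612 and 266 FPKM, a difference of 1.57 ± 0.32 (SE, adjusted p = 0.000587), with replicate 3 far below the others but above all monoculture libraries. Rpl12 read 557, 593 and 623 FPKM, a difference of 0.96 ± 0.05 (SE, adjusted p = 5.61e-10). Rps14, a small-subunit protein known from the 5q- syndrome, read 703, 699 and 684 FPKM alone and 1225, 1279 and 1350.1 in knockout co-culture, a difference of 0.88 ± 0.05 (SE, adjusted p = 1.58e-09). Neither Rpl12 nor Rps14 had a library near the other group's range. Rps18 read 22.8, 24.8 and 39.8 FPKM, a difference of 0.84 ± 0.26 (SE, adjusted p = 0.0119), which no longer passed without monoculture replicate 2 (adjusted p = 0.0553) or without knockout replicate 3 (adjusted p = 0.0661). The same rescaling as above moved the higher share of all calls from 49.3% to 60.4%, with 69 members higher and 0 lower.

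Whether loss of Phgdh in the cancer cells altered these genes in the hepatocytes was asked by setting both co-cultures against each other. None of the 85 members passed the limma test in either direction (2.99% of all genes tested did, 1.65% higher and 1.34% lower). An unadjusted p under 0.05 was found for 5, namely Rpl10, Rpl17, Rps7, Rps10 and Rps14, all named here after their values were seen. By chance about 1 in 20 genes without a difference reaches such a p, so this count is not read as a difference. The median difference, knockout minus wild type, was 0.03 over the members and 0.01 over all genes, with single members from -0.76 (Rps2, named after its values were seen) to 0.81 (Rpl17). The lowest adjusted p was that of Rps10, which read 1.56, 1.92 and 1.49 FPKM in wild-type and 0.917, 0.861 and 1.01 FPKM in knockout co-culture, a difference of -0.46 ± 0.13 (SE, adjusted p = 0.0833). Its libraries did not overlap, at levels where few fragments were counted. Rps7 read 272, 291 and 301 FPKM in wild-type and 302, 319 and 312 in knockout co-culture, a difference of 0.11 ± 0.04 (SE, adjusted p = 0.213), again with no overlap. Libraries of both genotypes did not overlap in 1 members with knockout higher (8.2% of all genes), Rps7, and in 4 with knockout lower (7.55%), Rpl6, Rpl10, Rps6 and Rps10. Leaving out knockout replicate 3 let 1 member pass, Rpl17, whose other 2 knockout libraries were the high ones. Leaving out both libraries that stood apart let 1 other pass, Rps14. The sign of the members' median also turned on single libraries: it was -0.08 without wild-type replicate 1 and 0.09 without wild-type replicate 2.

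The CXCR2 inhibitor went with lower levels of most members in the co-culture with wild-type cancer cells. 65 of 85 fell (33% of all genes tested fell), 1 rose (33.5% of all genes) and 19 did not pass. The median difference was -0.62 over the members and -0.01 over all genes tested. In 57 members every library with the inhibitor lay below every library without it (32.9% of all genes). 38 of 51 large-subunit and 27 of 34 small-subunit genes fell. Without wild-type co-culture replicate 1, 72 fell, with a median of -0.75. The 18 hepatocyte markers summed to 173 to 196 FPKM without and 870.1 to 889.7 FPKM with the inhibitor, and albumin read 22.5 to 27.2 and 323 to 343 FPKM; their part in the result was not tested. Values rescaled to TPM moved the median of all genes to 0.14 and the higher share of all calls from 50.4% to 65.7%, and 60 members then fell and 3 rose, with a median of -0.48.

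The 5 members with the greatest fall and no overlap were Rps27a, Rps12, Rpl23, Rpl19 and Rplp0. Rps27a read 48.1, 131 and 49.96 FPKM with the inhibitor against 376, 245 and 318 without it, a difference of -2.16 ± 0.45 (SE, adjusted p = 0.000665). Replicate 2 of the treated group was the high one and still below the untreated range. Rps12, a small-subunit protein, read 106, 136 and 109 against 263, 324 and 277 FPKM, a difference of -1.29 ± 0.13 (SE, adjusted p = 7.50e-07). Of the 100-base stretches of Rps12, 88.9% occur in other annotated genes, so its level is uncertain. Rpl23, a large-subunit protein known to bind MDM2, read 188, 237 and 192 against 307, 529 and 538 FPKM, a difference of -1.11 ± 0.18 (SE, adjusted p = 7.45e-05). Untreated replicate 1 was the low one in Rpl23, and above all treated libraries. Rpl19, a protein of the large subunit, read 569, 609.9 and 514 against 1081, 1265 and 1280.0 FPKM, a difference of -1.10 ± 0.07 (SE, adjusted p = 6.97e-09). Rplp0, the backbone of the stalk, read 1102, 1181 and 1118 against 2269, 2442 and 2444 FPKM, a difference of -1.07 ± 0.05 (SE, adjusted p = 4.35e-11). In Rplp0 the libraries with the inhibitor lay below those of monoculture as well. The only member that rose was Rps10, at 2.76, 3.14 and 2.72 FPKM against 1.56, 1.92 and 1.49, a difference of 0.55 ± 0.13 (SE, adjusted p = 0.00179). Rps10 shares 89.5% of its 100-base stretches with other genes and overlaps the protein-coding RPS10-NUDT3 on the same strand. The part of these in its low level and in its differences was not tested.

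In the co-culture with knockout cells the inhibitor went with lower levels as well. 69 of 85 members fell (34.7% of all genes tested), 1 rose (34.8%) and 15 did not pass. The median difference was -0.71 over the members against -0.01 over all genes, and in 69 the treated libraries all lay below the untreated (35.2% of all genes). 41 of 51 large-subunit and 28 of 34 small-subunit genes fell. Without treated replicate 4, 63 fell, with a median of -0.63. Hepatocyte markers summed to 203 to 217 FPKM without and 1108 to 1168 FPKM with the inhibitor. In TPM the median of all genes moved to 0.14 and the higher share of all calls from 50.1% to 65.1%, while 63 members fell, with a median of -0.55.

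The greatest falls without overlap were those of Rpl26, Rpl23, Rps29, Rps7 and Rps12. Rpl26 read 4.05, 3.78, 3.24 and 7.05 FPKM with the inhibitor against 9.48, 11.8 and 13.7 without it, a difference of -1.23 ± 0.18 (SE, adjusted p = 2.85e-05). Treated replicate 4 was the high one in Rpl26, although it was low in most other members. Rpl23 read 222, 214, 223 and 166 against 483, 521 and 418 FPKM, a difference of -1.20 ± 0.17 (SE, adjusted p = 1.74e-05). Rps29, a zinc-binding small-subunit protein, read 142, 146, 125 and 64.8 against 298, 361 and 158 FPKM, a difference of -1.17 ± 0.41 (SE, adjusted p = 0.0202). Rps29 varied more than most members, and the call was lost without knockout co-culture replicate 1 or 2 or treated replicate 4 (adjusted p = 0.0634 to 0.0940) and without the filter (adjusted p = 0.0520). Rps7 read 145, 136, 134 and 136 against 302, 319 and 312 FPKM, a difference of -1.17 ± 0.04 (SE, adjusted p = 1.92e-12), and had narrow groups far apart. Rps12 read 136, 138, 125 and 102 against 284, 267 and 277 FPKM, a difference of -1.14 ± 0.12 (SE, adjusted p = 1.23e-06). Rps10 was again the only member that rose, at 2.47, 2.47, 3.06 and 2.94 against 0.917, 0.861 and 1.01 FPKM, a difference of 0.95 ± 0.12 (SE, adjusted p = 6.21e-06).

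With the inhibitor present, no member differed between knockout and wild-type co-culture by the limma test (2.31% of all genes did, 1.66% higher and 0.649% lower), and 8 had an unadjusted p under 0.05. The median difference was -0.04 over the members and 0.00 over all genes, and the lowest adjusted p of a member was 0.103. Without overlap between libraries, 0 members were higher (8.42% of all genes) and 11 lower (6.18%) with knockout cells. The difference between both inhibitor effects (the interaction, knockout minus wild type) passed in no member (0.816% of all genes, 0.535% higher and 0.281% lower), with 5 members at an unadjusted p under 0.05, a lowest adjusted p of 0.165 and a median of -0.07. For these unadjusted counts too, about 1 in 20 is reached by chance, and no member is called from them. The members' median of the interaction was 0.05 without wild-type co-culture replicate 1 and 0.09 without both libraries that stood apart. The inhibitor effect on single members such as Rplp0 was close in both genotypes, at -1.07 with wild-type and -1.10 with knockout cells, an interaction of -0.03 ± 0.06 (SE, adjusted p = 0.932). For Rps27a the values were -2.16 and -1.42, an interaction of 0.74 ± 0.61 (SE, adjusted p = 0.746), so a difference of that size was within the spread between libraries. In TPM the higher share of the interaction's calls over all genes moved from 65.6% to 76.0%, with no member called.

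How far the levels with the inhibitor lay from those of hepatocytes alone was examined by 2 comparisons added after the values had been seen, which share their libraries with the others. In wild-type co-culture with the inhibitor, 25 members were lower than in monoculture (34.7% of all genes) and 7 higher (32.1%), with a median of -0.15. In treated knockout co-culture 33 were lower (36.1%) and 4 higher (33.3%), with a median of -0.19. Treated libraries lay without overlap below monoculture in 30 members with wild-type (37.2% of all genes) and 40 with knockout cells (36.7%), and above it in 9 (34.1%) and 4 (33.7%). These counts turned on the scale: in TPM, 14 were lower and 17 higher with wild-type cells, and 19 lower and 13 higher with knockout cells, while the higher share of calls over all genes moved from 48.1% to 63.3% and from 48.0% to 62.7%. The greatest falls without overlap were those of Rpl13a, Rplp0 and Rpl19 in both, with Rps12 and Rpl27 in the first and Rpl27-ps3 and Rpl23a in the second. Rpl13a, a large-subunit protein also known from translational silencing of inflammatory mRNAs, read 60.2, 52.8 and 57.4 FPKM in monoculture, 32.7, 35.1 and 34.1 in wild-type and 33.1, 30.4, 31.3 and 29.8 in knockout co-culture with the inhibitor. Its differences were -0.72 ± 0.08 (SE, adjusted p = 1.58e-06) and -0.85 ± 0.07 (SE, adjusted p = 1.28e-07). Rpl13a overlaps the protein-coding Gm45713 on the same strand, and the part of this in its level was not tested. Rplp0 differed by -0.69 and -0.74 and Rpl19 by -0.71 and -0.73. In the first comparison Rps12 differed by -0.63 (adjusted p = 0.000743) and Rpl27 by -0.58 (adjusted p = 0.000177), and in the second Rpl27-ps3 by -0.63 (adjusted p = 0.000172) and Rpl23a by -0.57 (adjusted p = 1.64e-05). The highest differences, with wild-type and with knockout cells, were those of Rps10, at 1.19 (adjusted p = 1.34e-06) and 1.14 (adjusted p = 9.29e-07). Rpl29 had 0.46 (adjusted p = 0.0306) and 0.55 (adjusted p = 0.00771) and Rpl10 had 0.30 (adjusted p = 6.36e-06) and 0.27 (adjusted p = 9.77e-06). Rpl12 was also called with wild-type cells, at 0.20 (adjusted p = 0.00364). The Rpl29 call with wild-type cells was lost without monoculture replicate 3 or treated replicate 2 (adjusted p = 0.118 to 0.146) and without the filter (adjusted p = 0.0715), at levels near 1 FPKM. Under quantile normalization neither Rpl29 call was kept, at 0.277 (adjusted p = 0.189) and 0.380 (adjusted p = 0.0578).

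Over the 5 groups, 81 of the 85 tested members had their highest mean in one of the co-cultures without the inhibitor, 34 in wild-type and 47 in knockout co-culture. The 4 exceptions were Rpl7l1 and Rps27l, highest in monoculture, Rps10, highest in wild-type co-culture with the inhibitor, and Rpl29, highest in knockout co-culture with it. The lowest mean fell in a group with the inhibitor for 66 members, in monoculture for 17 and in a co-culture without the inhibitor for 2. The order of group means was not counted over all genes tested, so how far it is particular to the members is not known.

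The stalk proteins, which recruit the elongation factors to the ribosome, followed the common pattern. Rplp1 (GRCm38, chr9:61913284-61914542, minus strand), the most abundant member, read 3576, 3037 and 3179 FPKM in monoculture, 4585, 5946 and 5889 in wild-type and 5216, 5889 and 5472 in knockout co-culture, and 2841, 3122 and 2827 and 2836, 2756, 2719 and 2560.2 in the same with the inhibitor. Both co-cultures lay above all other libraries, and of the treated libraries only wild-type co-culture replicate 2 reached the monoculture range. The Rplp1 differences were 0.74 ± 0.09 (SE, adjusted p = 7.17e-06) and 0.76 ± 0.09 (SE, adjusted p = 5.48e-06) for the co-cultures against monoculture, and -0.89 ± 0.09 (SE, adjusted p = 8.55e-07) and -1.02 ± 0.09 (SE, adjusted p = 8.28e-08) for the inhibitor with wild-type and knockout cells. Against monoculture, knockout co-culture with the inhibitor differed by -0.26 (adjusted p = 0.0153). This call was lost in TPM (adjusted p = 0.197), without the filter (adjusted p = 0.206) and without monoculture replicate 1 (adjusted p = 0.0862). It was also lost with a replicate block (adjusted p = 0.0505) and under scaling without mitochondrial genes, members and the 50 highest genes (adjusted p = 0.0573). Under quantile normalization the difference turned to 0.231 (adjusted p = 0.0191). Rplp0 (chr5:115559467-115563727) read 1810.4, 1847 and 1825 FPKM in monoculture and 2333, 2421 and 2298 in knockout co-culture, with wild-type co-culture as given above, and 1124, 1129, 1104 and 1029.7 in knockout co-culture with the inhibitor. Its 5 groups formed 3 levels without overlap: treated, alone, and co-culture without the inhibitor. The Rplp0 differences were 0.38 (adjusted p = 4.47e-06), 0.36 (adjusted p = 8.16e-06), -1.07 (adjusted p = 4.35e-11) and -1.10 (adjusted p = 1.29e-11) in the same order. Quantile normalization, which gives every library the same set of values, ended 3 of these calls: the Rplp0 co-culture differences became 0.0489 (adjusted p = 0.639) and 0.0914 (adjusted p = 0.370), and the Rplp1 inhibitor difference with wild-type cells -0.168 (adjusted p = 0.0955). Rplp2 (chr7:141447370-141451585) read 363, 323 and 327 FPKM in monoculture, 424, 626 and 579.8 with wild-type and 520.4, 597 and 484 with knockout cells, and, with the inhibitor, 331, 393 and 322 with wild-type and 357, 350.3, 367 and 327 with knockout cells. Rplp2 with the inhibitor lay around the monoculture range, with differences from it of 0.04 (adjusted p = 0.780) and 0.05 (adjusted p = 0.701). The differences for Rplp2 were 0.67 (adjusted p = 0.000287), 0.65 (adjusted p = 0.000342), -0.62 (adjusted p = 0.000440) and -0.60 (adjusted p = 0.000317).

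Among small-subunit proteins with other known roles, Rpsa, also described as a laminin receptor precursor, read 889, 878 and 875 FPKM in monoculture, 1131, 1106 and 1113 with wild-type and 1064, 1098 and 1127 with knockout cells, and, with the inhibitor, 717, 709 and 713 with wild-type and 669.9, 663, 662 and 671 with knockout cells. Its groups were among the narrowest, and the differences were 0.34 (adjusted p = 1.61e-07) and 0.32 (adjusted p = 4.12e-07) for the co-cultures and -0.65 (adjusted p = 1.11e-10) and -0.72 (adjusted p = 1.41e-11) for the inhibitor. Under quantile normalization the Rpsa co-culture differences no longer passed, at 0.155 (adjusted p = 0.0665) and 0.141 (adjusted p = 0.0946). Rps6, the substrate of the S6 kinases, read 479, 494 and 498 FPKM alone, 697, 693 and 716 with wild-type and 681, 693 and 667 with knockout cells, and, with the inhibitor, 504, 548 and 480.2 with wild-type and 507, 516, 509 and 459 with knockout cells. Treated libraries lay around the monoculture range, below all co-culture libraries without the inhibitor. The Rps6 differences were 0.52 (adjusted p = 5.46e-07), 0.47 (adjusted p = 1.52e-06), -0.46 (adjusted p = 1.67e-06) and -0.45 (adjusted p = 8.99e-07), the third of which was -0.149 (adjusted p = 0.0574) under quantile normalization. For Rps27a (chr11:29545846-29548109), knockout co-culture with the inhibitor read 159, 69.4, 72.6 and 179 FPKM, and its replicate 4 lay above knockout co-culture replicate 1. The inhibitor difference with knockout cells was -1.42 ± 0.42 (SE, adjusted p = 0.00783). Of its 100-base stretches 69.1% occur in other annotated genes and it overlaps Clhc1 on the opposite strand, and the part of these in its wide spread was not tested.

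Rpl5 and Rpl11 form a particle with the 5S ribosomal RNA and are known to bind MDM2, the p53 ubiquitin ligase. Rpl5 read 253, 262 and 262 FPKM in monoculture, 387, 398 and 409 with wild-type and 401, 410.0 and 405 with knockout cells, and, with the inhibitor, 220.5, 219 and 224 with wild-type and 221, 218, 217 and 200.03 with knockout cells. In FPKM Rpl5 formed 3 separate levels, with differences of 0.62 (adjusted p = 2.98e-09), 0.64 (adjusted p = 1.87e-09), -0.84 (adjusted p = 8.08e-11) and -0.92 (adjusted p = 1.25e-11). The lower level of Rpl5 in treated wild-type co-culture than in monoculture depended on the scale. It no longer passed in TPM, at -0.0732 (adjusted p = 0.0936), or under quantile normalization, at -0.112 (adjusted p = 0.0562). Rpl11 read 132, 133 and 123 FPKM alone, 111, 184 and 179 with wild-type and 159, 180.4 and 137 with knockout cells, and, with the inhibitor, 127, 153 and 123 with wild-type and 139, 139, 143 and 109 with knockout cells. Its low libraries were wild-type co-culture replicate 1 and treated knockout co-culture replicate 4, and no Rpl11 difference passed, at 0.25 (adjusted p = 0.204), 0.29 (adjusted p = 0.153), -0.21 (adjusted p = 0.296) and -0.26 (adjusted p = 0.159). Rpl13a in co-culture without the inhibitor read 61.2, 79.8 and 74.6 FPKM with wild-type and 69.5, 70.8 and 65.1 with knockout cells. Its differences were 0.33 (adjusted p = 0.00252) and 0.27 (adjusted p = 0.00997) against monoculture and -1.05 (adjusted p = 2.59e-08) and -1.11 (adjusted p = 5.60e-09) for the inhibitor.

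Paralogue pairs did not all move together. Rps27l, a copy of Rps27 known as a p53 target, read 180.0, 197 and 195 FPKM in monoculture, 142, 161 and 182 with wild-type and 167, 175 and 154 with knockout cells, and, with the inhibitor, 166, 175 and 166 with wild-type and 171, 163, 160.5 and 138 with knockout cells. Monoculture held the highest values, and wild-type co-culture overlapped with it. The Rps27l difference in wild-type co-culture was -0.25 ± 0.09 (SE, adjusted p = 0.0249), and it was lost without wild-type replicate 1 or 2 or monoculture replicate 2 or 3 (adjusted p = 0.0506 to 0.120); with knockout cells it was -0.21 (adjusted p = 0.0552). The Rps27l call in wild-type co-culture was also lost under quantile normalization, at -0.0692 (adjusted p = 0.471), under scaling without mitochondrial genes, members and the 50 highest genes, at -0.138 (adjusted p = 0.146), without the filter (adjusted p = 0.0608) and with only the groups compared (adjusted p = 0.0634). Rps27 read 277, 332 and 343 FPKM alone, 346, 467 and 616 with wild-type and 615, 614 and 455 with knockout cells, and, with the inhibitor, 209.8, 345 and 229 with wild-type and 303, 310.0, 298 and 214 with knockout cells. The Rps27 differences were 0.55 (adjusted p = 0.0426) and 0.81 (adjusted p = 0.00540) for the co-cultures and -0.86 (adjusted p = 0.00332) and -0.997 (adjusted p = 0.000617) for the inhibitor. The first of these was lost without any one monoculture library or without wild-type replicate 2 or 3 (adjusted p = 0.0551 to 0.200), without the filter (adjusted p = 0.105) and with only the groups compared (adjusted p = 0.0544). In FPKM, Rps27l stood at 0.604 ± 0.0410 times Rps27 (SD, n = 3) in monoculture, 0.350 ± 0.0572 and 0.298 ± 0.0355 in the co-cultures (n = 3 each), and 0.675 ± 0.150 (n = 3) and 0.5678 ± 0.0527 (n = 4) with the inhibitor. The ratio was lowest in both co-cultures without the inhibitor, with no overlap with the other groups, and since Rps27 shares nearly all of its 100-base stretches with Rps27rt, the ratio is uncertain.

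Rpl7l1, whose product takes part in assembly of the large subunit, read 30.8, 28.5 and 32.5 FPKM in monoculture, 23.7, 26.9 and 27.6 with wild-type and 27.8, 28.1 and 24.9 with knockout cells, and, with the inhibitor, 29.9, 31.0 and 25.8 with wild-type and 29.9, 29.1, 30.5 and 29.4 with knockout cells. Both co-cultures lay just below monoculture. The differences were -0.22 ± 0.07 (SE, adjusted p = 0.0157) and -0.18 ± 0.07 (SE, adjusted p = 0.0466), the first lost without wild-type replicate 1 or monoculture replicate 3 (adjusted p = 0.0707 to 0.0736) and the second without knockout replicate 1 or 3 or monoculture replicate 1 or 3 (adjusted p = 0.0547 to 0.190). Scaling without mitochondrial genes, members and the 50 highest genes ended both calls, at -0.119 (adjusted p = 0.126) and -0.0848 (adjusted p = 0.277). The second was also lost under quantile normalization, at -0.121 (adjusted p = 0.129), and, with adjusted p = 0.0517 to 0.0968, under both median-of-ratios scalings, no filter or no intensity trend. Its larger partner Rpl7 read 552, 535 and 558 FPKM alone, 647, 667 and 683 with wild-type and 633, 634 and 653 with knockout cells, and, with the inhibitor, 422, 433 and 426 with wild-type and 415, 417, 405 and 397 with knockout cells. Rpl7 rose by 0.28 (adjusted p = 4.35e-06) and 0.22 (adjusted p = 4.15e-05) in the co-cultures, and its inhibitor differences were -0.64 (adjusted p = 3.84e-10) and -0.65 (adjusted p = 1.37e-10). Under quantile normalization the Rpl7 co-culture differences did not pass, at 0.106 (adjusted p = 0.0903) and 0.0635 (adjusted p = 0.306). Rpl7l1 thus stood at 0.0558 ± 0.00237 times Rpl7 in monoculture (SD, n = 3), 0.0391 ± 0.00216 and 0.0421 ± 0.00347 in the co-cultures (n = 3 each) and 0.0677 ± 0.00617 (n = 3) and 0.0728 ± 0.00233 (n = 4) with the inhibitor, at 3 levels that did not overlap.

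Rpl22, known for a role in T-cell development, and its copy Rpl22l1 both rose in the co-cultures. Rpl22 read 67.2, 73.5 and 79.2 FPKM alone, 100.1, 116 and 117 with wild-type and 115, 115 and 99.9 with knockout cells, and, with the inhibitor, 75.5, 84.2 and 74.97 with wild-type and 79.3, 78.5, 84.7 and 70.2 with knockout cells. Rpl22l1 read 57.1, 42.0 and 49.9 FPKM alone, 58.6, 74.5 and 71.7 with wild-type and 63.5, 66.4 and 62.4 with knockout cells, and, with the inhibitor, 36.9, 35.6 and 39.8 with wild-type and 33.6, 35.8, 34.5 and 35.3 with knockout cells. The treated libraries were near monoculture for Rpl22 and below it for Rpl22l1. The co-culture differences were 0.59 (adjusted p = 2.80e-05) and 0.58 (adjusted p = 3.65e-05) for Rpl22 and 0.45 (adjusted p = 0.000896) and 0.37 (adjusted p = 0.00400) for Rpl22l1. Under treatment they were -0.50 (adjusted p = 0.000123) and -0.48 (adjusted p = 7.90e-05) for Rpl22, and -0.84 (adjusted p = 2.40e-06) and -0.86 (adjusted p = 8.27e-07) for Rpl22l1. Against monoculture the treated groups differed by -0.39 (adjusted p = 0.00260) and -0.49 (adjusted p = 0.000222) in Rpl22l1, and by 0.09 (adjusted p = 0.348) and 0.09 (adjusted p = 0.322) in Rpl22; a difference between the genes was not tested. Rpl22l1 stood at 0.684 ± 0.147 times Rpl22 in monoculture and at 0.448 ± 0.0425 in knockout co-culture with the inhibitor.

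Of the other pairs, Rpl3 read 304 ± 6.82 FPKM (SD, n = 3) in monoculture and 408 ± 20.7 and 399 ± 6.92 (n = 3 each) in the co-cultures, with differences of 0.42 (adjusted p = 6.93e-07) and 0.39 (adjusted p = 1.66e-06), and of -0.70 (adjusted p = 2.15e-09) and -0.66 (adjusted p = 1.68e-09) for the inhibitor, while Rpl3l was at or near 0. Rpl10, which joins the large subunit late, read 529, 521 and 523 FPKM alone, 809, 814 and 800.2 with wild-type and 731, 779 and 749 with knockout cells, and, with the inhibitor, 643, 655 and 641 with wild-type and 656, 637, 639 and 594 with knockout cells. The treated libraries lay between both other levels, and its inhibitor differences were -0.32 (adjusted p = 3.47e-06) with wild-type and -0.25 (adjusted p = 1.75e-05) with knockout cells, which under quantile normalization were -0.0900 (adjusted p = 0.0809) and 0.0106 (adjusted p = 0.828), neither passing. Rps4x, an X-linked small-subunit gene, read 793, 773 and 760.4 FPKM alone, 1046, 979 and 1013 with wild-type and 951, 983 and 1006 with knockout cells, and, with the inhibitor, 811, 802 and 801 with wild-type and 782, 771, 758 and 774 with knockout cells. It rose by 0.38 (adjusted p = 2.27e-07) and 0.34 (adjusted p = 9.62e-07), and its inhibitor differences of -0.33 (adjusted p = 1.00e-06) and -0.34 (adjusted p = 2.71e-07) turned to 0.0886 and 0.113 under quantile normalization. Its partner Rps4l is annotated as a pseudogene and is no member. Rpl36a and Rpl39 did not pass in the co-cultures, at 0.39 (adjusted p = 0.0998) and 0.46 (adjusted p = 0.0559) for Rpl36a and 0.32 (adjusted p = 0.191) and 0.45 (adjusted p = 0.0724) for Rpl39. With the inhibitor the Rpl39 differences were -0.72 (adjusted p = 0.00678) and -0.69 (adjusted p = 0.00529), and under quantile normalization -0.430 (adjusted p = 0.0883) and -0.353 (adjusted p = 0.127), neither passing. Those of Rpl36a were -0.44 (adjusted p = 0.0616) and -0.47 (adjusted p = 0.0316), the last lost in TPM, at -0.315 (adjusted p = 0.107), without the filter (adjusted p = 0.0755) and without knockout co-culture replicate 1 or 2 or treated replicate 4 (adjusted p = 0.0767 to 0.115). Rpl36al, too low to be tested, read 0.130 to 0.506 FPKM in monoculture, 1.33 to 1.69 and 0.837 to 1.58 in the co-cultures and 0.431 to 0.483 and 0.170 to 0.555 with the inhibitor.

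**Figure D3:**
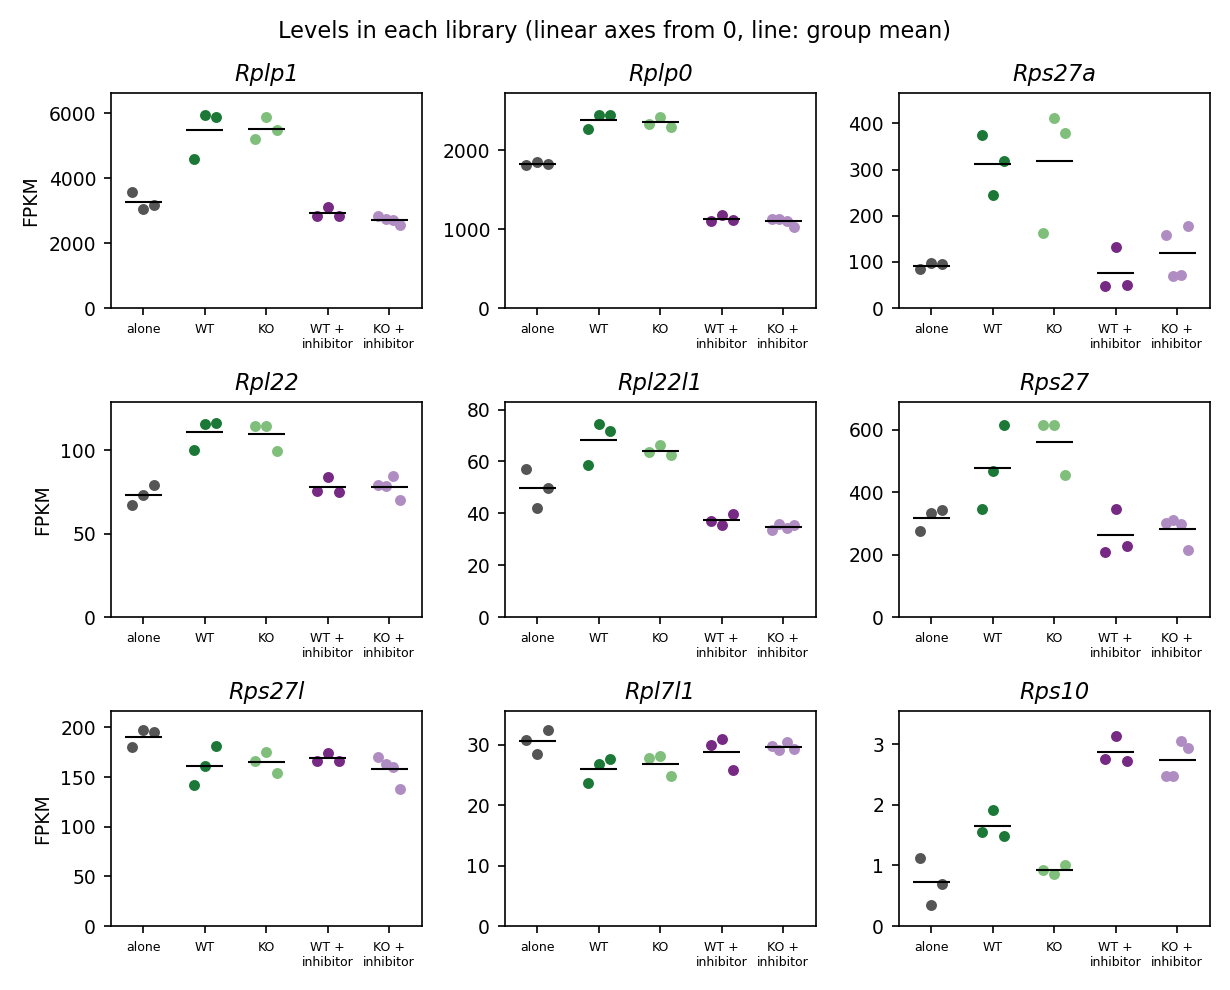
FPKM of 9 members in each library (points) with group means (bars), on linear axes from 0, for monoculture, both co-cultures and both co-cultures with the CXCR2 inhibitor. Rplp1 and Rplp0 were highest in the co-cultures without the inhibitor, at up to 5946 and 2444 FPKM, Rps27l and Rpl7l1 were highest in monoculture, and Rps10, at 3.14 FPKM or less in every library, was highest with the inhibitor.

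The scatter between libraries of one group was not the same for all members. The within-group standard deviation on the log2(FPKM + 1) scale had a median of 0.282 over the 22 tested members whose principal transcript is under 500 bases long and of 0.115 over the 63 longer ones. Spearman's rho between transcript length and this scatter was -0.55 over the 85 genes and -0.56 over the 75 at 10 FPKM or more; this is across genes that share the same libraries, and is a description. Short and longer members deviated unequally in single libraries. The median deviation from the group mean was -0.34 for short and -0.19 for longer members in wild-type co-culture replicate 1, and -0.36 and -0.09 in treated knockout co-culture replicate 4. In treated wild-type co-culture replicate 2 it was 0.30 and 0.09. In wild-type co-culture, 11 of the 22 short members rose (30.1% of all genes tested) and 10 did not pass, at a median of 0.47, against 48 of the 63 longer ones, at a median of 0.47. With the inhibitor, 11 short and 54 longer members fell with wild-type cells (33% of all genes), and 14 and 55 with knockout cells (34.7%). Short and longer members thus had close medians, beside a wider scatter of the short ones.

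**Figure D4:**
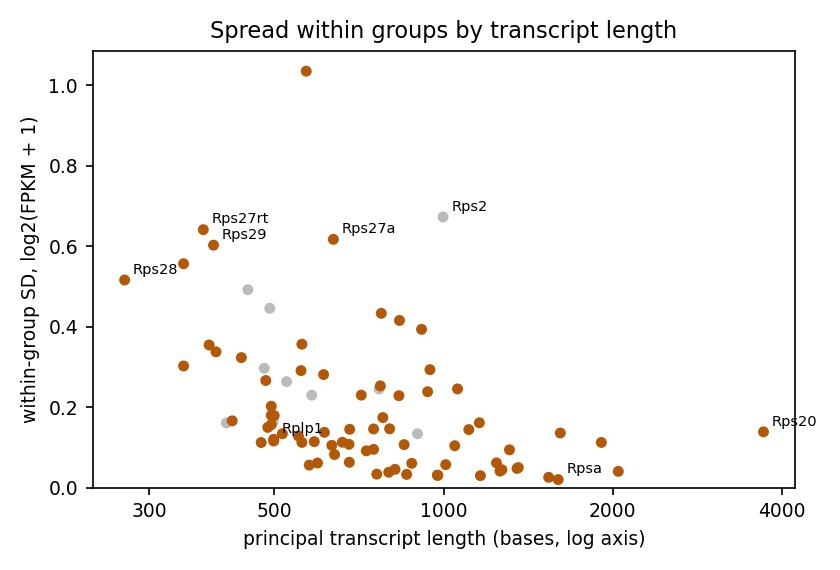
Standard deviation between libraries of one group, pooled over the 5 groups on the log2(FPKM + 1) scale, against the length of the principal transcript in bases for the 85 tested members; each point is 1 gene, in grey where its mean is under 10 FPKM. Members with transcripts under 500 bases have a median of 0.282, against 0.115 for longer ones.

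Most members with few near-identical copies differed in the same direction as most of the 85. The 12 members that share under 10% of their 100-base stretches with another gene include Rpl4, Rpl7l1, Rpl8, Rpl22, Rpl32, Rpl39, Rps3, Rps20, Rps21 and Rps27l. Of the 12, 8 rose (30.1% of all genes tested) and 2 fell (31.9%) in wild-type co-culture at a median of 0.47, and 9 rose (30.3%) and 1 fell (31.2%) in knockout co-culture at 0.52. With the inhibitor 9 of the 12 fell (33% of all genes) at a median of -0.67 and 10 (34.7%) at -0.71; none passed as higher, while 2 and 1 had a positive difference. Rpl7l1 and Rps27l were the 2 that fell in wild-type co-culture. Processed pseudogenes with Rpl or Rps names are copies of the mRNAs to which the members' reads can also align. Of 80 tested, 35 rose in wild-type (30.1% of all genes) and 33 in knockout co-culture (30.3%), with none lower (31.9% and 31.2%). The others did not pass. With the inhibitor 41 (33% of all genes) and 49 (34.7%) fell and 2 (33.5%) and 0 (34.8%) rose. Those called thus went mostly in the members' directions. The gene length used for the deposited FPKM was a median of 2.27 times the principal transcript's (range 0.968 to 9.80). This factor is the same in every library but differs between members.

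Rack1 and Fau, which encode ribosomal proteins but whose names fall outside the rule, had differences of the same signs. Rack1, a small-subunit scaffold protein, read 396, 383 and 378 FPKM in monoculture, 612, 609 and 608 with wild-type and 596, 619 and 635 with knockout cells, and, with the inhibitor, 253, 249 and 256 with wild-type and 239, 234.8, 236 and 242 with knockout cells, at 3 separate levels. Fau, which encodes a ubiquitin-like protein fused to Rps30, rose by 0.74 (adjusted p = 2.98e-06) in wild-type and 0.72 (adjusted p = 4.15e-06) in knockout co-culture. With the inhibitor both fell in both genotypes, with differences for Rack1 of -1.27 (adjusted p = 1.25e-13) and -1.37 (adjusted p = 2.29e-14).

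Lists of other genes of ribosome production had medians nearer 0 than the members. The following counts are given for wild-type and knockout co-culture against monoculture and for the inhibitor with wild-type and with knockout cells, in that order. RNA polymerase I and ribosome assembly genes (72 tested) had 33 higher and 6 lower (median 0.15), 32 higher and 5 lower (median 0.14), 8 higher and 29 lower (median -0.11) and 12 higher and 32 lower (median -0.10). These genes make and process ribosomal RNA in the nucleolus, and their medians had the members' signs at a smaller size. Translation factors and RNA-binding proteins with TOP mRNAs (23 genes) had 12 higher and 5 lower (median 0.14), 13 higher and 5 lower (median 0.12), 3 higher and 17 lower (median -0.24) and 4 higher and 18 lower (median -0.28). Mitochondrial ribosomal proteins (79 genes), which build a separate ribosome inside mitochondria, had 27 higher and 17 lower (median 0.07), 30 higher and 13 lower (median 0.09), 5 higher and 34 lower (median -0.19) and 7 higher and 45 lower (median -0.27). The medians of both lists had the members' signs and were closer to 0, with genes called in both directions. The list of mTORC1 and MYC regulators (34 genes) had 14 higher and 9 lower (median 0.09), 12 higher and 8 lower (median 0.08), 12 higher and 14 lower (median -0.00) and 15 higher and 14 lower (median 0.03). The 5S particle, MDM2 and p53 list (10 genes, without Rpl5 and Rpl11) had 4 higher and 3 lower (median -0.01), 4 higher and 4 lower (median -0.09), 1 higher and 8 lower (median -0.34) and 1 higher and 5 lower (median -0.15). Genes of comparable abundance that are no members, 298 protein-coding genes at 100 FPKM or more, had 80 higher and 167 lower (median -0.22), 85 higher and 163 lower (median -0.19), 119 higher and 126 lower (median -0.03) and 118 higher and 135 lower (median -0.03); their median in the co-cultures had the opposite sign to that of the members.

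**Figure D5:**
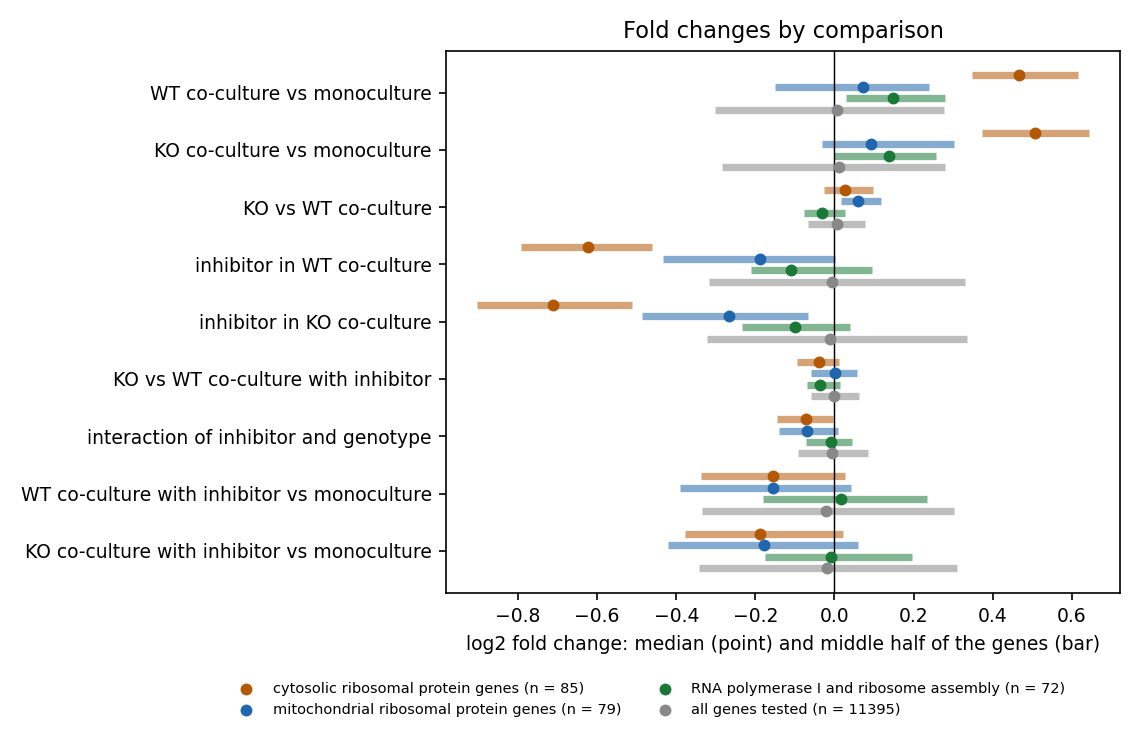
Median difference on the log2(FPKM + 1) scale (point) with the interval from the 25th to the 75th percentile of genes (bar) for the cytosolic ribosomal protein genes, mitochondrial ribosomal protein genes, ribosome assembly genes and all genes tested, in 9 comparisons. The members' intervals run from 0.35 to 0.62 for wild-type co-culture and from 0.37 to 0.64 for knockout co-culture against monoculture, and from -0.79 to -0.46 and -0.90 to -0.51 for the inhibitor, while the medians of all genes stay near 0.

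The promoter table held an entry for 65 of the 93 members, and the start sites shown above are drawn from it. A C at the annotated start followed by at least 4 more pyrimidines was present in 13 of 65 members (20%), in 2.49% of all 27025 promoters and in 2.45% of the 8319 of tested genes. Such a run beginning within 5 bases of the start was present in 29 members (44.6%), in 18.5% of all promoters and in 20.2% of those of tested genes. An annotated start can lie some bases from the one in use, so an absent run says only that these letters are not at that base. Searched on both strands in the 300 bases from 250 before to 50 after the start, CCGGAAG, a sequence bound by ETS-family factors, was present in 25 of 65 members, 38.5%, against 9.12% of all promoters and 20.6% of those of tested genes. GCCAT, the core of the YY1 site, was present in 53.9% against 40.9% and 39.1%, and GGGCGG, the GC box, in 60.0% against 35.9% and 67.3%. TATAA was present in 26.1% against 25.5% and 12.3%, and CACGTG, the E-box known for MYC, in 5 members, 7.69%, against 7.24% and 10.9%.

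Members with and without the pyrimidine run near the annotated start had close medians in the comparisons given here. Since an annotated start can differ from the one in use, members without a run here can still have TOP mRNAs. The split therefore cannot decide whether the motif had a part in the differences. The 29 tested members with a run within 5 bases had a median of 0.45 in wild-type co-culture, against 0.48 in the 31 with an entry but no such run. In knockout co-culture the medians were 0.48 and 0.52. For the inhibitor they were -0.58 and -0.59 with wild-type cells and -0.66 and -0.72 with knockout cells. For treated co-culture against monoculture they were -0.13 and -0.18 with wild-type cells and -0.18 and -0.23 with knockout cells. There 5 of 29 and 12 of 31 were lower with wild-type cells (34.7% of all genes), and 3 and 2 higher (32.1%). With knockout cells 8 and 14 were lower (36.1%), and 1 and 1 higher (33.3%). Among the members printed above, Rps6 with its run rose by 0.52 in wild-type co-culture and Rplp0 without one by 0.38, while Rps27l, which has a run within 5 bases but none at the start base, fell and Rpl7l1, which has none near the start, fell as well.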

How the data were processed

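RNA was sequenced from 16 libraries, placed in 5 groups by their labels. Library preparation followed a commercial provider's protocol, per the labels' protocols. HISAT2 is listed as the aligner's name and GRCm38 with mm10 as genome builds, per the submitters' processing notes. The tool that counted reads, the annotation release and the handling of reads with several alignments are not given here. The authors deposited FPKM values for each gene and library, without pooled replicates. Multiplied by the table's gene length they gave whole fragments, within 0.1, for 100% of values. The library size used as divisor was not the sum of these fragments. That sum was 1.025 to 1.028 times the divisor in monoculture and 0.997 to 1.009 times it in co-culture without the inhibitor. With the inhibitor it was 0.970 to 0.974 times. How the divisor was set is not given. Median-of-ratios factors of the deposited values were 0.994 to 1.007, so medians near 0 over all genes tested are a property of this scale.

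Analysis started from log2(FPKM + 1) of the deposited values. In R 4.3.3, limma 3.58.1 fitted one mean to each group over the 16 libraries (intensity trend, 11 residual degrees of freedom) for the 11395 genes averaging at least 1 FPKM. Each two-sided p-value was adjusted by Benjamini and Hochberg's method across these genes, and an adjusted p under 0.05 counted as passing. The fit was tested on simulated data. No label states that replicate numbers pair libraries, and the main fit used no pairing. Alternatives covered the pseudocount, the filter, 5 scalings, the variance model, a replicate block and leaving out each library. The 2 comparisons of inhibitor-treated groups with monoculture, and the setting without both libraries that stood apart, were added after the values were seen. Shared stretches were found by matching 100-base sequences among GENCODE M21 transcripts on GRCm38, where 89 of the 93 members have the table's coordinates; start sites came from RefSeq. Some members enter the counts but are not reported here by name. The members and gene lists were chosen with earlier results of these data known. Named are paralogue pairs, members with roles given in the text, the 5 highest and 5 lowest in level, and in each comparison the 5 greatest differences in each direction that passed without overlap between libraries.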

Additional observations from a re-analysis of the deposited data

Results flagged for a closer look

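Only knockout co-culture with the inhibitor had enough libraries (4) for a test of a library far from the others of its group; in each case the gap to the nearest other library, divided by the group's range, exceeded the 95% critical value of Dixon's test. Of 85 values so tested (84 members and their summed share), 23 were beyond it, where chance would give about 1 in 20 groups; the genes share the same 4 libraries. Replicate 4 was the low library for 11 large-subunit genes that read 109 FPKM (Rpl11), 507 FPKM (Rpl19), 166 FPKM (Rpl23), 278 FPKM (Rpl27a), 229 FPKM (Rpl31) and 789 FPKM (Rpl32) there, and 182 FPKM (Rpl35), 590.0 FPKM (Rpl36), 108 FPKM (Rpl36a), 226 FPKM (Rpl37a) and 276 FPKM (Rpl39). It was also low for small-subunit genes, with 576 FPKM (Rps16), 114 FPKM (Rps19), 217 FPKM (Rps21), 214 FPKM (Rps23), 214 FPKM (Rps27), 65.4 FPKM (Rps28), 286 FPKM (Rps3) and 459 FPKM (Rps6). In the same library the members' share of all fragments was 4.26%. Rps18 was high there, at 28.1 FPKM. Replicate 1 was the high library for Rpl17, at 297 FPKM, and Rpl29, at 2.60 FPKM.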

How the results depend on the processing

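The sign of the members' median in both co-cultures against monoculture, and with the inhibitor in both genotypes, held under every alternative run. Between genotypes it turned with single libraries: it was -0.02 without knockout co-culture replicate 2, and with the inhibitor 0.01 without treated wild-type replicate 2. With each library left out in turn, the members higher in wild-type co-culture than in monoculture numbered 53 to 67 and those lower 0 to 2; in knockout co-culture 55 to 62 and 0 to 2; higher in knockout than in wild-type co-culture 0 to 1; with the inhibitor in wild-type co-culture 59 to 72 lower and 1 to 2 higher, and in knockout co-culture 61 to 71 lower and 1 higher. Against monoculture, 4 to 7 were higher and 20 to 34 lower in treated wild-type co-culture, and 4 to 5 and 27 to 32 in treated knockout co-culture. Without both libraries that stood apart, 72 were higher and 1 lower in wild-type co-culture, 1 was higher in knockout than wild-type co-culture, and 73 and 70 fell with the inhibitor.

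Small counts moved by a few genes. Lower in wild-type co-culture was 1 member without a filter on low values, under quantile normalization or with only the groups compared, and 0 after scaling without mitochondrial genes, members and the 50 highest genes. Lower in knockout co-culture were 0 without the filter, under that scaling, both median-of-ratios scalings, quantile normalization or no intensity trend, and 2 in TPM or with only the groups compared. Higher with the inhibitor were 0 at a mean of at least 5 FPKM (both genotypes), 3 (wild-type) and 2 (knockout) in TPM, 2 (knockout) with only the groups compared and 3 (knockout) under quantile normalization. Against monoculture, treated wild-type co-culture had 17 higher and 14 lower in TPM, 14 higher under the scaling without members and 20 under quantile normalization. Treated knockout co-culture had 13 higher and 19 lower in TPM, 11 and 16 higher under those scalings, and 2 at a mean of at least 5 FPKM. Quantile normalization reversed Rps4x with the inhibitor, at 0.0886 (adjusted p = 0.120) with wild-type and 0.113 (adjusted p = 0.0372) with knockout cells, Rpl10 with knockout cells, at 0.0106 (adjusted p = 0.828), and Rplp1 in treated knockout co-culture against monoculture, at 0.231 (adjusted p = 0.0191). The members' share was 3.33, 5.01, 5.11, 3.06 and 2.999% of fragments without mitochondrial and the 50 highest genes, and 9.35, 13.4, 13.7, 9.18 and 8.90% of summed FPKM, in monoculture, both co-cultures and both treated co-cultures. Quantile normalization also ended calls of Rplp0, Rpsa and Rpl7 in both co-cultures, Rps27l in wild-type and Rpl7l1 in knockout co-culture, Rpl39 with the inhibitor in both genotypes, and Rplp1, Rps6 and Rpl10 with the inhibitor and wild-type cells, as given with each gene. The cause of these changes was not tested.

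No label states that replicate numbers pair libraries. The deviations of same-numbered libraries correlated at -0.300 to 0.270 over 30 pairs. Differently numbered libraries were not set beside them, so these values cannot decide whether there was a pairing. With a replicate block, to which treated knockout replicate 4, alone with its number, adds nothing, 61 members were higher and 2 lower in wild-type co-culture, 65 and 1 in knockout co-culture, 69 fell and 1 rose with the inhibitor and wild-type cells, 65 fell and 1 rose with knockout cells, and 0 differed between genotypes. The block ended the call of Rpl7l1 in knockout co-culture (adjusted p = 0.0772), where the 1 called lower is another member. With the inhibitor and knockout cells it ended those of Rps29 (adjusted p = 0.0524) and Rpl36a (adjusted p = 0.0826). It also ended that of Rplp1 in treated knockout co-culture against monoculture (adjusted p = 0.0505). A planned count test on recovered fragments was not run. Members near 1 FPKM rest on few fragments, and intervals between libraries there are wide.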
